A study of Mus musculus with 9 samples.

Results

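Expression of 9 genes of megakaryocytes and platelets was followed in 9 RNA-seq libraries of mouse fetal liver erythroid cells. The 9 were named by symbol: the chemokine genes Pf4 and Ppbp, the surface receptor genes Gp1bb, Gp9, Treml1 and Selp, the adhesion and matrix genes Vwf and Thbs1, and the intracellular signalling gene Plek. All 9 were found among the 19840 gene names of the files, each through its transcript record with the highest mean. Gp1bb had 1 further record, which was not used.

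The strain of every library was C57BL/6 and the tissue fetal liver, taken between embryonic days 13.5 and 14.5. The labels name no genetic change, and each condition had 1 library. The fresh cells were early erythroid progenitors (BFU-E), later ones (CFU-E) and Ter119+ erythroblasts. BFU-E had the lowest 10% of CD71 staining and CFU-E the highest 20%, both among Kit-positive cells. Cells that stained for CD34, CD41, CD16/32, CD3, B220, Gr-1, Mac-1 or Ter119 had been excluded. Erythroblasts were sorted as Ter119-positive and Kit-negative, and the labels name no exclusion of CD41, a platelet integrin, for them.

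The other 6 libraries were BFU-E from 2 sorts, each of the lowest 10%: by CD71 alone (the CD71 sort), or by CD71 together with CD24a (the CD71/CD24a sort). All 6 grew for 4 h without and then 4 h with the agents, in a serum-free medium that held erythropoietin at 2 U/mL, IGF-1 at 40 ng/mL and stem cell factor at 100 ng/mL. The CD71 sort received either water or the synthetic glucocorticoid dexamethasone (Dex) at 100 nM. The CD71/CD24a sort received water, 100 nM Dex, 333 µM DMOG (dimethyloxalylglycine, an inhibitor of the enzymes that mark HIF for degradation) or both. The labels do not say how many embryos were pooled, nor whether the sorts were of different days.

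Megakaryocytes arise in fetal liver from progenitors that also give rise to the erythroid lineage. They fill platelets with granules that hold chemokines and adhesive proteins, and they cover them with the GPIb-IX-V complex, the receptor for von Willebrand factor. Several of these genes are not restricted to the lineage: Vwf and Selp are also made by endothelium, Thbs1 by many cell types, and Plek by leukocytes.

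Values are RPKM (read counts scaled to transcript length and to the library's total), divided by 1 scaling factor per library so that the median gene is level between libraries (normalised RPKM). The depth recovered from the steps between low values was 11.9 to 52.7 M (mega) reads per library. Intervals below are exact (Clopper-Pearson) 95% intervals from these recovered reads, and they hold no other error than that of counting, because duplicates made by PCR are not separate molecules. In bulk RNA, fewer cells of a type and less RNA per cell cannot be told apart.

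Promoter windows are shown for 5 members: Pf4 and its neighbour Ppbp with Gp9, which were highest in Ter119+ cells, and Treml1 and Plek, which were much lower in CFU-E than in fresh BFU-E. Each runs from 250 bases before the RefSeq start to 50 after it in GRCm38.p6, a later build than that of the expression files, and is printed on the gene's strand. Capitals mark GATAA (or TTATC), the core letters bound by GATA factors, and TGTGGT (or ACCACA), those bound by RUNX factors. The windows are chr5:90772185-90772484, plus strand, for Pf4, chr5:90768268-90768567, plus strand, for Ppbp, chr6:87777820-87778119, plus strand, for Gp9, chr17:48359666-48359965, plus strand, for Treml1, and chr11:17008669-17008968, minus strand, for Plek.
Pf4: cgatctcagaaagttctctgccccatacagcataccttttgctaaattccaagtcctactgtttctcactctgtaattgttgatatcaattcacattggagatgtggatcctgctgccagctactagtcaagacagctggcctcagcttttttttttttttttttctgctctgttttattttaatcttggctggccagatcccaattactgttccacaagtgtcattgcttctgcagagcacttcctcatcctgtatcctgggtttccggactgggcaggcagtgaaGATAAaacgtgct
Ppbp: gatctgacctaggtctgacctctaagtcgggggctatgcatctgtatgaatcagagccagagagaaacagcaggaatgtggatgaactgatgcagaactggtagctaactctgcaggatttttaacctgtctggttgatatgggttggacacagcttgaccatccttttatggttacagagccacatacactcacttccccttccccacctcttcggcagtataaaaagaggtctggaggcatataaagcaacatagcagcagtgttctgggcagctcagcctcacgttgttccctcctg
Gp9: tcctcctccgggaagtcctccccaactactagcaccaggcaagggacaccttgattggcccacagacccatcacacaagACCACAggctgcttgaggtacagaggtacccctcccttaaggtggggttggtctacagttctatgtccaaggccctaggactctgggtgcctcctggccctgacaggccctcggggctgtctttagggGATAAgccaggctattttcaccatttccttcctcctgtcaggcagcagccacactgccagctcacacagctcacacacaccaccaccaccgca
Treml1: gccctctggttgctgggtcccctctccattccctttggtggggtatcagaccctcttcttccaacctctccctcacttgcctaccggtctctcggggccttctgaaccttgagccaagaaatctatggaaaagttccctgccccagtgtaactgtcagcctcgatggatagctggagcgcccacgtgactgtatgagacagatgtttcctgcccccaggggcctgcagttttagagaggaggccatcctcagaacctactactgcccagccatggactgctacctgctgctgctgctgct
Plek: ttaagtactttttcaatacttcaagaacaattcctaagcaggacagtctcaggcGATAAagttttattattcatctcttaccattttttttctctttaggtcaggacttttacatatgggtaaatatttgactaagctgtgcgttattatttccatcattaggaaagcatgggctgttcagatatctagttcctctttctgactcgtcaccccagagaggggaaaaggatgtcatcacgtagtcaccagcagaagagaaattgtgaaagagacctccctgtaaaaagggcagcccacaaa

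A window was available for 7 of the 9 members (not for Thbs1 and Vwf). GATAA in either direction was in 3 of the 7, Pf4, Gp9 and Plek, beside 25.4% of all 32851 windows of this length. Counted from the start, it began at -43 in Gp9 and at -196 in Plek, before the start, and at 37 in Pf4, past it. GGAAG (or CTTCC), the core letters bound by ETS factors, was in 6 of the 7 beside 71.4% of all windows, and TGTGGT in 1 of the 7, Gp9, beside 16.8%. The Ppbp and Pf4 windows started 3917 bases apart on the same strand, so the pair are close neighbours. The matches marked in capitals do not overlap each other, and a match is a description of the sequence, not a binding site.

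**Figure D1:**
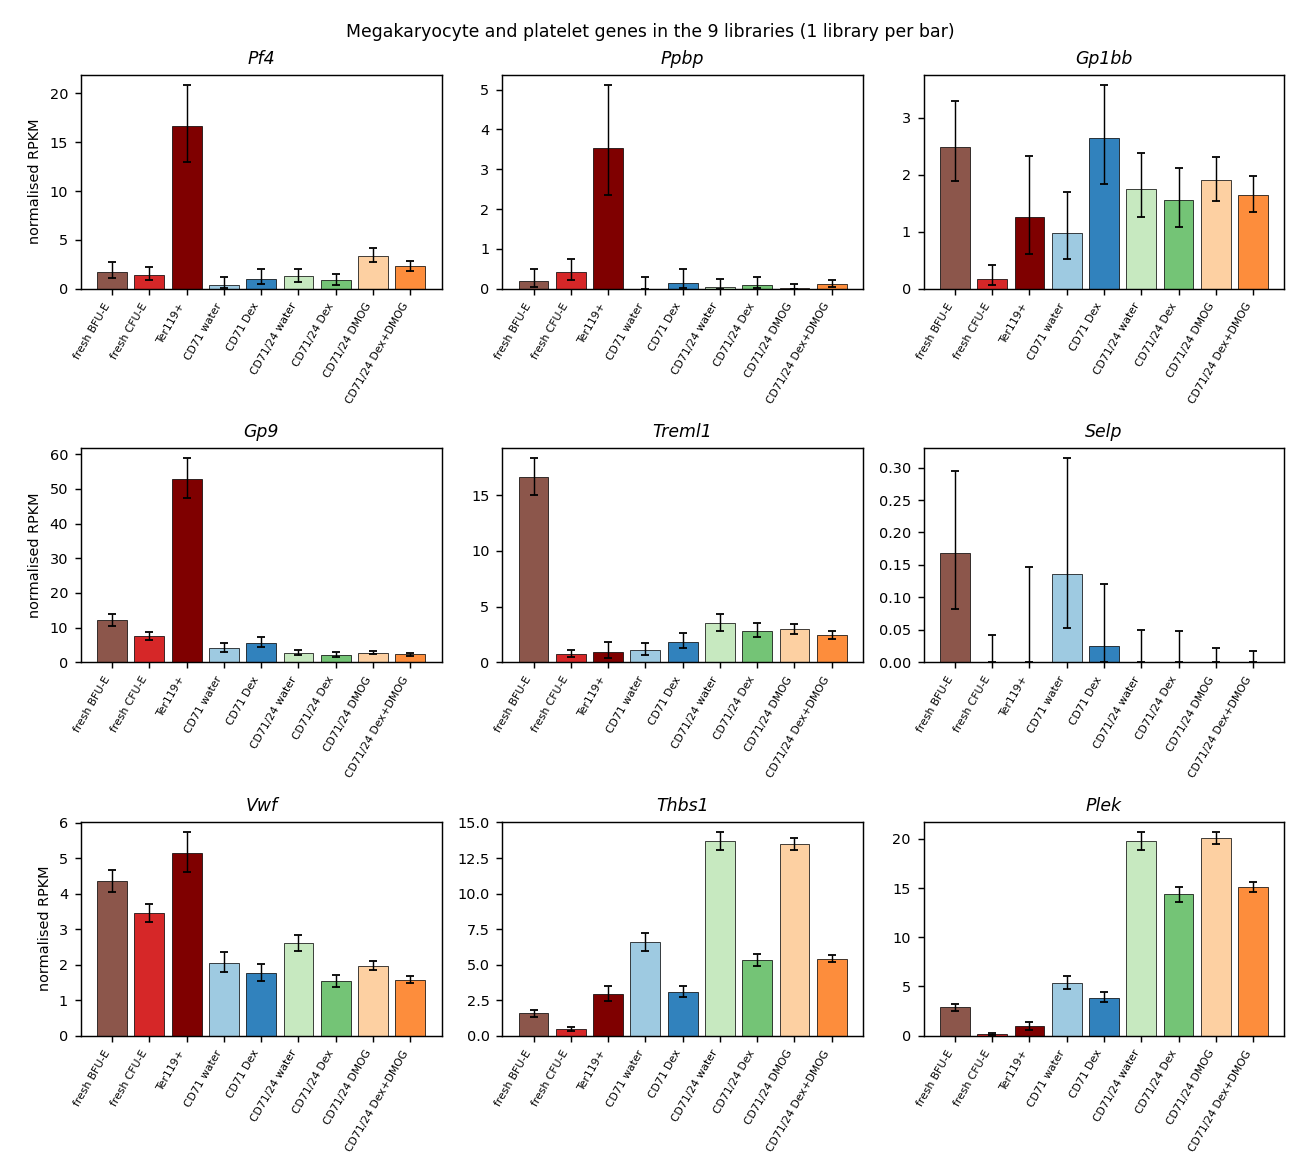
Normalised RPKM of each of the 9 genes in the 9 libraries (bars, 1 library each, with 95% intervals of counting error; each panel has its own scale from 0). Pf4, Ppbp and Gp9 were highest in the Ter119+ library, also in the RPKM as deposited, Treml1 in fresh BFU-E, and Thbs1 and Plek in cultured BFU-E.

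The fresh libraries address how these transcripts differ between early progenitors, later progenitors and erythroblasts. Compared with fresh BFU-E, the receptor genes Treml1 and Gp1bb and the signalling gene Plek were much lower in CFU-E. Compared with CFU-E, the chemokine genes Pf4 and Ppbp, the receptor subunit gene Gp9 and the matrix gene Thbs1 were higher in Ter119+ cells, of which Ppbp and Thbs1 stayed within 2-fold on the same scale without the scaling factor. Selp was close to 0 in all 9 libraries. Each comparison sets 1 library against 1, so a difference has no replicate check, and a 2-fold difference on the scale of log2(normalised RPKM + 1) was used as a fixed rule of size.

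Pf4 encodes platelet factor 4, an alpha-granule chemokine, and stood at 1.74 normalised RPKM in fresh BFU-E, 1.44 in CFU-E and 16.7 in Ter119+ cells. The Ter119+ value was 11.5-fold above CFU-E (6.97 to 19.3) and rested on 71 reads, against 20 in BFU-E and 22 in CFU-E. BFU-E and CFU-E did not differ beyond counting error, with a ratio of CFU-E to BFU-E of 0.832 (0.433 to 1.61). In culture the CD71 sort held 0.419 with water and 1.004 with Dex. The CD71/CD24a sort held 1.26 with water, 0.839 with Dex, 3.39 with DMOG and 2.29 with both agents. The Ter119+ library was thus well above the other 8, and among the cultures the pair with DMOG was the higher. The counting interval with both agents (1.81 to 2.83) overlapped that of the CD71/CD24a sort with water (0.722 to 2.05). It also overlapped that of the CD71 sort with Dex (0.437 to 2.00).

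Ppbp, the neighbouring gene, encodes the precursor of another alpha-granule chemokine and was scarce outside the Ter119+ library. Its levels were 0.189 in fresh BFU-E, 0.429 in CFU-E and 3.53 in Ter119+ cells, from 4, 12 and 28 reads. Ter119+ cells were 8.23-fold above CFU-E (4.05 to 17.8). In culture it lay between 0 and 0.137, on 0 to 7 reads per library, which is too few to compare the arms. The level of 0 was that of the CD71 sort with water, where 3 reads would be 0.229.

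Gp9 encodes a subunit of the GPIb-IX-V receptor, and its transcript was present at 1 normalised RPKM or more in all 9 libraries. It stood at 12.1 in fresh BFU-E, 7.47 in CFU-E and 52.9 in Ter119+ cells. The step from CFU-E to Ter119+ was 7.07-fold (5.88 to 8.58), on 169 and 340 reads. Cultured cells of the CD71 sort held 4.05 with water and 5.64 with Dex. Those of the CD71/CD24a sort held 2.62 with water, 2.21 with Dex, 2.69 with DMOG and 2.26 with both. All 6 cultures were below the 3 fresh libraries, with overlapping counting intervals for CFU-E and the CD71 sort with Dex, and the CD71/CD24a sort was below the CD71 sort.

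Gp1bb encodes another subunit of the same receptor and did not follow Gp9. It stood at 2.49 in fresh BFU-E, 0.167 in CFU-E and 1.25 in Ter119+ cells, on 53, 5 and 10 reads. Fresh BFU-E was 14.9-fold above CFU-E (5.64 to 44.9). In culture it was 0.979 with water and 2.64 with Dex in the CD71 sort, and 1.75, 1.55, 1.90 and 1.64 with water, Dex, DMOG and both in the CD71/CD24a sort. Its own level is uncertain, because 83.0% of the 32-base words of its transcript also occur in Septin5, which overlaps it on the same strand. Septin5 was at 0.120, 0.0363 and 0.192 in fresh BFU-E, CFU-E and Ter119+ cells and at 1.51 to 3.04 in the cultures. In the fresh libraries it was thus the lower of the pair. In culture it was the higher, except in the CD71 sort with Dex (1.70, against 2.64 for Gp1bb).

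Treml1 encodes TLT-1, a receptor stored in platelet granules, and was mainly a fresh BFU-E transcript. It stood at 16.6 in fresh BFU-E, 0.696 in CFU-E and 0.892 in Ter119+ cells, on 394, 22 and 8 reads. Fresh BFU-E was 23.9-fold above CFU-E (15.4 to 38.2), the widest of the differences between these progenitors among the members with 3 or more reads in both. The interval overlapped those of Plek (11.98 to 36.7) and Gp1bb (5.64 to 44.9), so this rank is not beyond counting error. CFU-E and Ter119+ cells did not differ beyond counting error (Ter119+ to CFU-E 1.28, 0.494 to 2.99). The cultures lay between fresh BFU-E and the other fresh cells, at 1.08 and 1.81 in the CD71 sort with water and Dex, and at 3.52, 2.83, 2.94 and 2.46 in the CD71/CD24a sort with water, Dex, DMOG and both. In the CD71 sort the counting interval with water overlapped those of CFU-E and Ter119+ cells. The interval with Dex overlapped that of Ter119+ cells.

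Selp encodes P-selectin, which activated platelets and endothelium carry to their surface. It was 0.168 in fresh BFU-E (11 reads), 0.136 and 0.0243 in the CD71 sort with water and Dex (6 reads and 1 read), and 0 in the other 6 libraries. In the Ter119+ library, where Pf4 and Gp9 were highest, Selp had 0 reads, 3 reads would be 0.120, and the 95% interval reaches 0.147. It passed the filter on low values in none of the comparisons and is described by these values only.

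Vwf encodes von Willebrand factor, the ligand of the GPIb-IX-V receptor, and, like Gp9, was at 1 or more in all 9 libraries. It stood at 4.35 in fresh BFU-E, 3.45 in CFU-E and 5.16 in Ter119+ cells. In culture it was 2.06 and 1.77 in the CD71 sort with water and Dex, and 2.60, 1.53, 1.97 and 1.58 in the CD71/CD24a sort with water, Dex, DMOG and both. With the scaling factor all 6 cultures were below the 3 fresh libraries. The place of Ter119+ cells rests on that factor: as deposited, Vwf was 3.74 RPKM in CFU-E, 2.16 in Ter119+ cells and 3.03 in the CD71/CD24a sort with water.

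Thbs1 encodes thrombospondin 1, a matrix glycoprotein that platelets release from alpha granules. It stood at 1.57 in fresh BFU-E, 0.466 in CFU-E and 2.96 in Ter119+ cells, and Ter119+ cells were 6.35-fold above CFU-E (4.70 to 8.63). In the CD71 sort it was 6.57 with water and 3.08 with Dex. In the CD71/CD24a sort it was 13.7 with water, 5.31 with Dex, 13.5 with DMOG and 5.42 with both. In contrast to Gp9 and Vwf, all 6 cultures were above the 3 fresh libraries, although the counting intervals of the CD71 sort with Dex and of Ter119+ cells overlapped. The arms with and without Dex did not overlap in any of the 3 pairs.

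Plek encodes pleckstrin, a substrate of protein kinase C in platelets and white blood cells. It stood at 2.87 in fresh BFU-E, 0.140 in CFU-E and 0.952 in Ter119+ cells, and fresh BFU-E was 20.5-fold above CFU-E (11.98 to 36.7). In the CD71 sort it was 5.34 with water and 3.88 with Dex. In the CD71/CD24a sort it was 19.7 with water, 14.3 with Dex, 20.1 with DMOG and 15.1 with both. The 4 CD71/CD24a libraries were the highest, and all 6 cultures were above the fresh ones. Plek overlaps Cnrip1 on the opposite strand, and strand use in counting is not given in the sources used here, so their reads cannot be told apart. Cnrip1 stood at 1.99 in fresh BFU-E, not far below Plek there, at 0 in CFU-E and Ter119+ cells, and at no more than 0.510 in culture.

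Within fresh BFU-E, the order of levels per length was Treml1, Gp9, Vwf, Plek, Gp1bb, Pf4, Thbs1, Ppbp and Selp. The counting intervals of Plek, Gp1bb and Pf4 overlapped one another there, as did those of Pf4 and Thbs1, and those of Ppbp and Selp. Within Ter119+ cells Gp9 led, followed by Pf4, Vwf, Ppbp and Thbs1, with overlapping intervals for Vwf and Ppbp and for Ppbp and Thbs1. In CD71/CD24a cells with water Plek and Thbs1 led. The leading gene of the set was therefore another one in each of these 3 libraries.

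**Figure D2:**
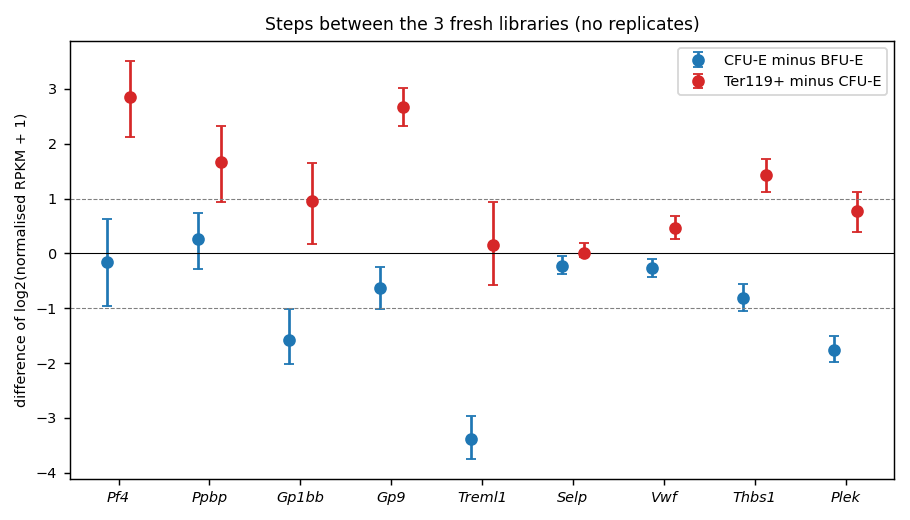
Differences of log2(normalised RPKM + 1) for the 9 genes between fresh BFU-E and CFU-E (blue) and between CFU-E and Ter119+ cells (red). Each point compares 1 library with 1, bars span the counting intervals of both levels, and the dashed lines mark the 2-fold rule; Treml1, Plek and Gp1bb lie below it in the first step, and Pf4, Gp9, Ppbp and Thbs1 above it in the second, Ppbp and Thbs1 only with the scaling factor.

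By the 2-fold rule, 7 members had 1 normalised RPKM or more in fresh BFU-E or CFU-E. Of these, 3 were lower in CFU-E (Treml1, Plek and Gp1bb), beside 12.3% of all genes that passed the same filter, and 0 were higher, beside 3.32%. The members' median difference was -0.81 and that of all genes -0.08. Ppbp and Selp did not pass the filter. Treml1, Plek, Gp1bb and Thbs1 passed through their BFU-E level alone and could only be lower, and these include all 3 called lower. Pf4, Gp9, Vwf and Thbs1 stayed within 2-fold on this scale, although the Thbs1 levels themselves were 3.36-fold apart (2.54 to 4.50).

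Between CFU-E and Ter119+ cells 6 members passed the filter and 4 of them were higher in Ter119+ cells (Pf4, Gp9, Ppbp and Thbs1), beside 22.6% of all genes that passed, while 0 were lower, beside 28.8%. The members' median was 1.55 and that of all genes -0.21. Treml1, Selp and Plek did not pass, and Gp1bb and Vwf stayed within 2-fold. Ppbp, Thbs1 and Gp1bb passed through their Ter119+ level alone and could only be higher. Without the scaling factor, which is 0.419 for the Ter119+ library and 1.02 to 1.18 for the other 8, 2 of 5 members that passed were higher, Pf4 (4.45-fold) and Gp9 (2.73-fold). Ppbp (3.18-fold) and Thbs1 (2.45-fold) then stayed within 2-fold on the log2 scale with its pseudocount. The factor also moved the median of all genes from -1.30 to -0.21, and the shares of genes higher and lower from 8.46% and 60.3% to 22.6% and 28.8%. 

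Across both steps, from BFU-E to Ter119+ cells, 8 members passed. Pf4, Ppbp and Gp9 were higher, beside 21.2% of all genes, and Treml1 was lower, beside 35.8%. Ppbp passed through its Ter119+ level alone and could only be higher. Treml1 and Plek passed through their BFU-E level alone and could only be lower. Pf4 was 9.60-fold higher (5.70 to 16.4), Gp9 4.37-fold higher (3.67 to 5.23) and Treml1 18.6-fold lower (9.28 to 43.1). Without the factor Pf4 (3.81-fold) and Ppbp were higher, beside 8.97% of all genes, and Treml1, Plek and Gp1bb were lower, beside 62.0%. Gp9 was then 1.74-fold higher and within the rule. Thbs1 changed direction, from 1.57 and 2.96 normalised RPKM to 1.65 and 1.24 RPKM as deposited in BFU-E and Ter119+ cells. Vwf also did, from 4.35 and 5.16 normalised RPKM to 4.59 and 2.16 as deposited.

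Other megakaryocyte and platelet genes, 72 of 75 listed, give the background of the lineage. Between fresh BFU-E and CFU-E 55 passed the filter. Of these, 35 were lower in CFU-E by the 2-fold rule, beside 12.3% of all genes, and 0 higher, beside 3.32%. The median of the 55 was -1.66. The lower ones were 9 of 12 receptors and surface proteins, 6 of 13 granule and secretion genes, 11 of 15 signalling, cytoskeleton and enzyme genes, and 9 of 15 transcription factors. The transcription factor gene Gata2 stood at 82.9 in BFU-E and 1.26 in CFU-E, and Rasgrp2, whose product activates the platelet GTPase RAP1, at 29.3 and 0.687. Both were among the 3 genes of the list with the largest differences.

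Between CFU-E and Ter119+ cells 44 of these other genes passed, of which 15 were higher, beside 22.6% of all genes, and 9 lower, beside 28.8%. The median of the 44 was 0.55. The largest differences upward were in the transcription factor genes Nfe2 (52.2 and 1477), Mafg (20.2 and 269) and Mafk (34.3 and 319), whose products pair with each other and are shared by the erythroid and megakaryocyte lineages. The lowest relative to CFU-E were the transcription factor gene Etv6 (7.48 and 0.763), Pdlim1 (29.8 and 5.52) and Was (18.7 and 4.24). Among the receptors 2 of 9 were higher and 2 lower. From BFU-E to Ter119+ cells 10 of 57 were higher, again led by Mafg, Mafk and Nfe2, beside 21.2% of all genes. In the other direction 34 were lower, led by Gata2, Nrgn and Syk, beside 35.8%. In that comparison 0 of 13 receptors were higher and 11 were lower. These counts rest on the scaling factor too. Without it 6 of 37 were higher in Ter119+ cells than in CFU-E, beside 8.46% of all genes, and 21 lower, beside 60.3%, with a median of -1.27. Against BFU-E 5 of 56 were then higher, beside 8.97%, and 43 lower, beside 62.0%.

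Markers of other cells moved with these differences, and their part in them was not tested. The summed level of 13 macrophage markers was 8.30 in fresh BFU-E, 1.89 in CFU-E, 51.4 in Ter119+ cells and 0.981 to 2.58 in the cultures, led in Ter119+ cells by Lyz2 (15.8) and C1qb (10.1). That of 18 neutrophil and mast cell markers was 102, 5.20 and 214 in the fresh libraries and 5.58 to 28.7 in culture. It was led in Ter119+ cells by Mpo (57.3, but 71.5 in fresh BFU-E) and S100a9 (49.1, and 0.105 in fresh BFU-E). In the Ter119+ library 2 macrophage markers (Cd163 and Timd4) and 3 mast cell markers (Mcpt4, Ms4a2 and Fcer1a) were at 0. The Ter119+ library, where Pf4, Ppbp and Gp9 were highest, thus also had the highest sums of both white cell lists on the normalised scale. As deposited, the neutrophil and mast cell sum was 108 RPKM in BFU-E and 89.6 in Ter119+ cells, while the macrophage sum was still highest in Ter119+ cells (21.5, against 8.77 in BFU-E).

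The summed endothelial markers were lowest in Ter119+ cells, but several single markers were not. The sum of 14 was 119 in fresh BFU-E, 70.8 in CFU-E, 9.34 in Ter119+ cells and 43.1 to 70.1 in the cultures, and most of it was Egfl7 and Eng. The vessel markers Cdh5 (0.640, 0.0775 and 0.854 in BFU-E, CFU-E and Ter119+ cells), Kdr (0.431, 0.0284 and 0.600), Cldn5 (0.217, 0.0546 and 0.578) and Stab2 (0.176, 0.0807 and 0.268) were higher in Ter119+ cells than in CFU-E. So were Tie1, Flt1 and Ramp2. All of these were under 1 normalised RPKM in both libraries, and their levels rest on the scaling factor. Egfl7 (47.1 in CFU-E and 4.76 in Ter119+ cells), Eng (23.1 and 1.55), Tek (0.0166 and 0), Lyve1 (0.0740 and 0.0522) and Pecam1 (0.178 and 0.168, with 6.88 in BFU-E) were lower in Ter119+ cells. Emcn was at 0 in both, and Sele was at 0 in all 9 libraries. The part of these cells in the results was not tested. The sum of 8 hepatocyte markers was 31.4 in BFU-E, 11.6 in CFU-E, 26.1 in Ter119+ cells and 3.45 to 14.8 in culture, led in Ter119+ cells by Alb (10.3) and Afp (5.55). Of the erythroid markers, all 10 were at 1 or more in the 3 fresh libraries, and their sum was highest in Ter119+ cells.

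**Figure D3:**
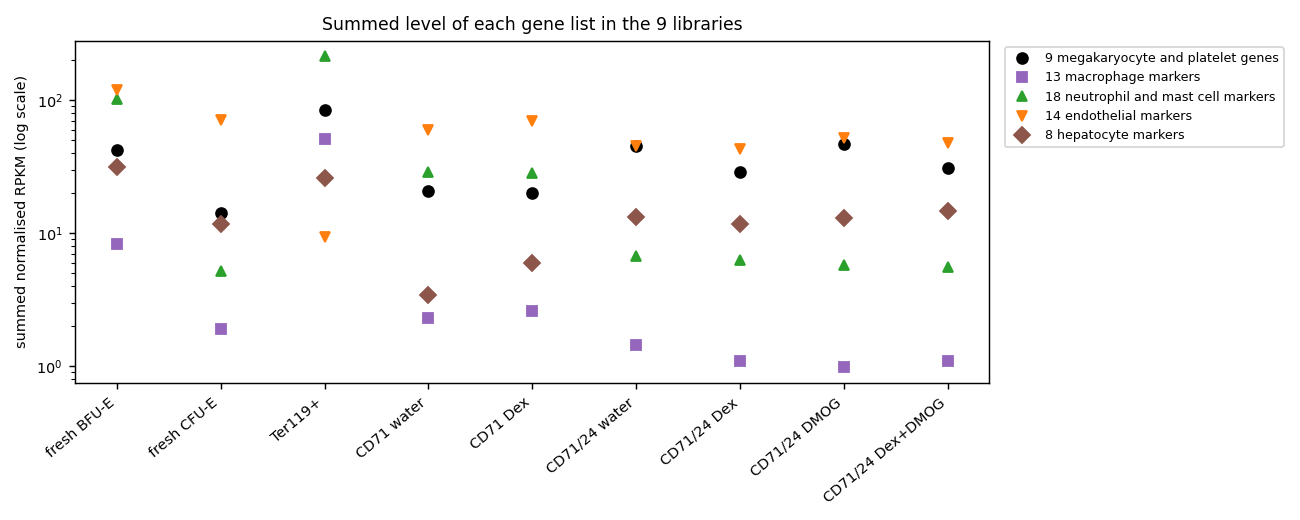
Summed normalised RPKM (log scale) of the 9 genes and of marker lists of other cells in the 9 libraries, 1 library per position. The Ter119+ library has the highest sums of the 9 genes (84.3), of macrophage markers (51.4) and of neutrophil and mast cell markers (214), and the lowest sum of endothelial markers (9.34). Without the scaling factor the Ter119+ sum of the 9 genes would be 35.3, below the 44.4 of fresh BFU-E and the 55.0 of the CD71/CD24a sort with DMOG, and the neutrophil and mast cell sum would be below that of fresh BFU-E.

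The cultures with water show how BFU-E kept in medium compared with fresh BFU-E, with culture time, medium and preparation changing together. Thbs1 and Plek were higher in culture, and Gp9 and Treml1 were lower. In the CD71 sort, which used the CD71 gate of fresh BFU-E, 7 members passed the filter. Thbs1 was higher (4.20-fold, 3.52 to 5.02), beside 6.27% of all genes, and Gp9 and Treml1 were lower, by 2.98-fold (2.14 to 4.26) and 15.4-fold (9.30 to 27.0), beside 9.06%. Plek was 1.86-fold higher (1.55 to 2.23) and stayed within the rule.

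In the CD71/CD24a sort with water 7 members passed the same filter. Thbs1 (8.74-fold, 7.49 to 10.3) and Plek (6.88-fold, 5.99 to 7.92) were higher, beside 11.2% of all genes. Gp9 (4.62-fold, 3.35 to 6.38) and Treml1 (4.72-fold, 3.77 to 6.02) were lower, beside 12.9%. Both cultures were compared with the same fresh library. Of the other megakaryocyte genes 1 of 56 was higher and 14 lower in the CD71 sort, beside 6.27% and 9.06% of all genes. In the CD71/CD24a sort 3 of 57 were higher and 16 lower, beside 11.2% and 12.9%. F2rl2, a thrombin receptor gene, was the higher one in the CD71 sort (2.15 fresh, 7.90 cultured) and was also higher in the other (11.9), together with the adaptor gene Lat (15.8 and 48.3) and the integrin gene Itgb3 (0.821 and 3.02). Nrgn, Rasgrp2 and Srgn, a granule proteoglycan gene, had the largest differences downward in both.

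Dex was tested across 3 pairs of cultured BFU-E (CD71 sort, CD71/CD24a sort, and CD71/CD24a sort with DMOG) with limma, fitted to the 9535 genes whose mean over the 6 libraries reached 1 normalised RPKM. Thbs1 fell with Dex, by 1.10 on the log2 scale (SE 0.093, limma adjusted p = 0.00416). It was lower with Dex in all 3 pairs, to 0.468 (0.400 to 0.549), 0.388 (0.355 to 0.424) and 0.402 (0.380 to 0.424) of the level without it. Of 7 members tested 1 fell, beside 0.629% of all genes, and 0 rose, beside 1.39%. Ppbp and Selp were under the filter. When the pairing was left out the adjusted p of Thbs1 was 0.747, and with no filter on low values it was 0.0832, in a range of 1.78e-06 to 0.747 over 10 alternatives.

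Plek differed by -0.40 with Dex (SE 0.070) and narrowly missed the threshold (limma adjusted p = 0.0507). It was at 0.726 (0.604 to 0.873), 0.727 (0.676 to 0.782) and 0.753 (0.720 to 0.787) of the level without Dex in the 3 pairs. It passed without the CD71 pair (adjusted p = 0.00318) and with a pseudocount of 0.1 (0.0484), among alternatives from 0.00318 to 0.99997. Vwf differed by -0.28 (SE 0.11, adjusted p = 0.275) and was also lower with Dex in all 3 pairs, most in the CD71/CD24a pair, at 0.590 of the level with water (0.509 to 0.682).

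The other 4 members tested had estimates near 0: Gp1bb 0.21 (SE 0.21), Gp9 0.01 (SE 0.13), Pf4 -0.07 (SE 0.19) and Treml1 0.0041 (SE 0.15). All 4 were higher with Dex in the CD71 pair and lower with Dex in both CD71/CD24a pairs. Gp1bb was 2.69-fold higher (1.37 to 5.38) in the CD71 pair, on 13 and 38 reads, and at 0.888 (0.548 to 1.41) and 0.862 (0.651 to 1.15) in the others. Pf4 was 2.39-fold higher in the CD71 pair, but on 3 and 8 reads the interval ran from 0.576 to 14.04, and it was at 0.668 (0.281 to 1.54) and 0.676 (0.492 to 0.910) in the others. The counting intervals of Gp9 and Treml1 held 1 in each of the 3 pairs.

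These 4 estimates prompted a further fit, added after the values were seen, in which the Dex difference could differ between the 2 sorts, so its p-values describe a pattern already seen and do not establish it. The Dex difference in CD71/CD24a cells minus that in CD71 cells was -0.9996 for Gp1bb (SE 0.18, limma adjusted p = 0.00726), -0.85 for Pf4 (SE 0.18, adjusted p = 0.0221) and -0.65 for Treml1 (SE 0.17, adjusted p = 0.0467). The limma call thus took in 3 of 7 members, beside 2.55% of all genes in that direction and 3.48% in the other, and nothing is read from that count. Gp9 did not pass (-0.57, SE 0.16, adjusted p = 0.0618), nor did Thbs1 (-0.30, adjusted p = 0.222), Vwf (-0.21, adjusted p = 0.522) or Plek (-0.03, adjusted p = 0.908). The fit has 1 residual degree of freedom, from the CD71/CD24a pairs, and the CD71 sort has a single pair, whose counting error is not in these SEs. In that pair the counting intervals of Pf4 and Treml1 held 1, and most of the Gp1bb transcript also occurs in Septin5, as given above. With no filter on low values 0 members passed. Treml1 also did not pass without the scaling factor or with all records of a gene summed. The adjusted p ran from 0.00350 to 0.214 for Gp1bb, from 0.0126 to 0.223 for Pf4 and from 0.0357 to 0.247 for Treml1 over 6 alternatives.

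**Figure D4:**
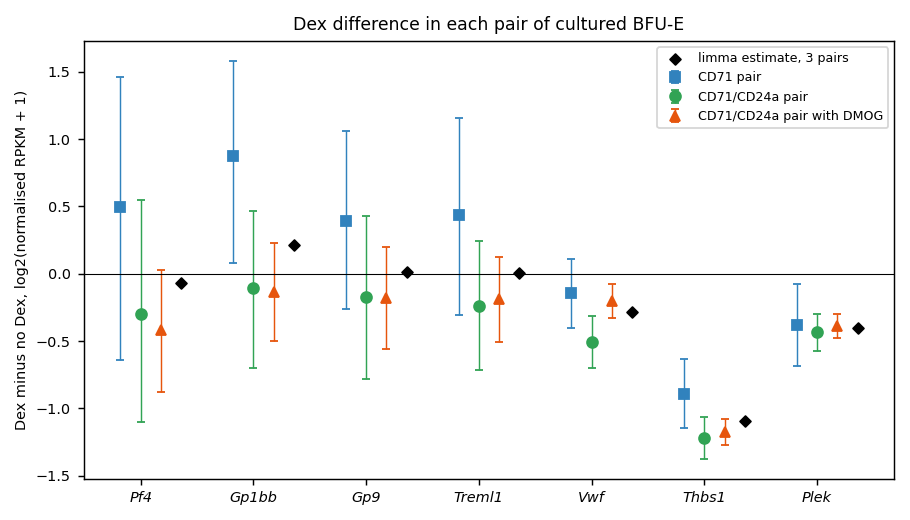
Dex minus no Dex in each pair of cultured BFU-E, as the difference of log2(normalised RPKM + 1), for the 7 members tested. Coloured symbols are single pairs with bars spanning the counting intervals of both levels, and black diamonds are limma estimates over 3 pairs; Thbs1 lies at -1.10 with all pairs below 0, while Gp1bb, Pf4, Gp9 and Treml1 lie above 0 in the CD71 pair alone.

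Of 51 other megakaryocyte and platelet genes tested, 2 rose with Dex, beside 1.39% of all genes, and 6 fell, beside 0.629%. Itgb3, the beta chain of the platelet fibrinogen receptor, rose by 1.90 (limma adjusted p = 0.000916). Nrgn, which encodes the calmodulin-binding protein neurogranin, rose by 0.78 (adjusted p = 0.0178). Those that fell were the surface genes P2rx1, an ATP-gated channel (-0.66), F2rl2 (-0.55) and the tetraspanin gene Cd9 (-0.48), the adaptor gene Lat (-0.49) and the transcription factor genes Mef2c (-0.62) and Zfpm1 (-0.71), with adjusted p from 0.0162 to 0.0423. The median of the 51 was -0.09 and that of all genes -0.02. Itga2b, which encodes the alpha chain that pairs with Itgb3, did not pass (0.18, adjusted p = 0.326).

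DMOG was tested in the same fit, over 2 pairs of the CD71/CD24a sort. Pf4 had the largest difference of the members, 0.90 (SE 0.23), with an unadjusted limma p of 0.00667 and an adjusted p of 0.933. It was 2.70-fold higher with DMOG without Dex (1.58 to 4.90, on 16 and 95 reads) and 2.73-fold higher with Dex (1.43 to 5.61, on 11 and 82 reads). Of 7 members 0 passed in limma, and 1 (Pf4) had an unadjusted p under 0.05. Of all genes 0.021% rose and 0% fell, and 347 had an unadjusted p under 0.05. When the fit held the 4 CD71/CD24a libraries alone, Pf4 passed (adjusted p = 0.000859, the lowest of 7 alternatives, the highest being 1).

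The other members differed little with DMOG. Thbs1 differed by 0.0027 (SE 0.11), Plek by 0.05 (SE 0.086), Gp9 by 0.03 (SE 0.16), Gp1bb by 0.06 (SE 0.25), Vwf by -0.12 (SE 0.13) and Treml1 by -0.17 (SE 0.18). For Thbs1 the ratio was 0.986 (0.931 to 1.04) without Dex and 1.02 (0.935 to 1.11) with it. Ppbp, the neighbour of Pf4, had 1 read with water and 1 with DMOG, and 2 with Dex and 7 with both agents. Of 51 other megakaryocyte genes 0 passed. An interaction of Dex and DMOG set the Dex difference in the DMOG pair against the mean of the CD71 and CD71/CD24a pairs without DMOG. In it limma called 0 of 7 members and 0 of all 9535 genes, with 0 members and 275 genes at an unadjusted p under 0.05. The contrast mixes sort with DMOG, and its residual is the difference between the CD71 and CD71/CD24a pairs. It therefore cannot decide whether the Dex difference changed with DMOG, and nothing is read from these counts.

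The 2 sorts were compared in the same fit. Plek was higher in the CD71/CD24a sort by 1.68 (SE 0.086, limma adjusted p = 0.00102), Thbs1 by 0.79 (SE 0.11, adjusted p = 0.00301) and Treml1 by 0.78 (SE 0.18, adjusted p = 0.0130), and Gp9 was lower by 0.77 on that scale (estimate -0.77, SE 0.16, adjusted p = 0.01004). With no filter on low values Treml1 (adjusted p = 0.0613) and Gp9 (0.0526) did not pass. Thus 3 of 7 members rose, beside 29.1% of all genes, and 1 fell, beside 25%. Pf4, Gp1bb and Vwf did not pass. Plek was 3.69-fold (3.24 to 4.22) higher with water and 3.70-fold (3.19 to 4.29) higher with Dex. Each sort was 1 preparation, so the gate and the preparation cannot be told apart.

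Of the 51 other megakaryocyte genes 17 were higher in the CD71/CD24a sort, beside 29.1% of all genes, and 12 lower, beside 25%. Nothing is read from these counts. The higher ones with the largest differences were Meis1 (1.15), the granule transport gene Rab27b (1.13) and Itgb3 (0.88), and they also held the von Willebrand receptor subunit gene Gp1ba (0.72) and the transcription factor gene Fli1 (0.79). The lower ones with the largest differences were Zfpm1 (-1.82), Gfi1b (-1.03) and the thrombin receptor gene F2rl3 (-0.86). Gp1ba and Gp9, which encode partners in 1 receptor, thus differed between the sorts in opposite directions. The summed neutrophil and mast cell markers were 28.1 and 28.7 in the CD71 sort and 5.58 to 6.70 in the CD71/CD24a sort, and their part in these differences was not tested.

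The patterns of the members across the 9 libraries fell apart, described here by Pearson's r of log2(normalised RPKM + 1) with no test, since the libraries share sorts and the Ter119+ library weighs heavily. Ppbp went with Gp9 (r = 0.90) and Pf4 (r = 0.88), and Thbs1 with Plek (r = 0.89), whereas Gp9 and Plek ran opposite (r = -0.76). Gp1bb and Gp9, subunits of the same receptor, had r = -0.12. The genes with the most similar pattern among 10631 were Ccng2, Narf and H2ac20 for Pf4 (r = 0.96 for each) and Arel1, Btrc and Kif22 for Ppbp (r = 0.998, 0.998 and 0.997). For Gp9 they were Sipa1, Tst and Iqgap3, and for Treml1 Ramp1, Pdzph1 and Rnu7.

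For Gp1bb the most similar were Spi1 (r = 0.91), Fes (0.91) and Itga2b (0.90), 1 of which, Itga2b, is on the list of other megakaryocyte genes. Itga2b stood at 44.0 in fresh BFU-E, 2.12 in CFU-E and 12.2 in Ter119+ cells, although surface CD41, its product, was excluded by the progenitor gates. For Thbs1 they were Adprhl1, Cdkn1a and Yaf2, of which Cdkn1a, a cell cycle inhibitor gene, stood at 1.79, 0.586 and 3.06 in the fresh libraries and at 7.15 to 19.4 in culture. For Vwf they were Trafd1, Fancg and Sap25, and for Plek Ythdf3, Gucy1b1 and Pmaip1.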

How the data were processed

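The deposited files hold RPKM values computed by the authors for 23041 RefSeq transcript records per library, with the build mm9, per the submitters' processing notes. How reads were aligned and counted, the use of strand and the handling of shared reads are not given in the sources used here. In the 4 CD71/CD24a files an exact 1 stands where the other files have 0, and it was read as 0.

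Symbols came from RefSeq of GRCm38.p6 (22397 records) or GENCODE (114), and 530 records had none. Each library was divided by a median-of-ratios factor, from the 6888 genes that reached 1 RPKM in all 9 libraries. The log2(value + 1) scale understates the change of low genes. Depth came from RPKM steps: 67.0% to 69.9% of values of up to 10 reads came out whole within 0.1 reads (20% by chance).

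Fresh libraries were compared, with no test, among genes at 1 or more in either library. Cultured libraries were tested with limma 3.58.1 (trend, culture pair as a block, 2 residual degrees of freedom, Benjamini-Hochberg, threshold 0.05). Depth recovery and limma were tested on simulated data. The pairing comes from the treatment protocol, which divides the cells of a sort between the arms. With 2 sorts in all, p-values measure only the spread among 3 pairs, which may be technical.

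All members are named, with listed genes that passed limma or had the 3 largest differences each way in a fresh step, and the 3 most similar genes per member; a gene that this rule selects is not reported here. For the comparison of sorts a few that passed are named, chosen after their values were seen, as was Itga2b. Members and lists were chosen with earlier results of these data known.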

Additional observations from a re-analysis of the deposited data

Results flagged for a closer look

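For 3 members a limma interaction of Dex and sort in cultured BFU-E passed the threshold, in a fit added after seeing the pattern, with 1 pair in the CD71 sort. It does not establish that the Dex difference differs between the sorts, and with no filter on low values 0 members passed. Treml1 was also lost without the scaling factor and with all records of a gene summed. The Dex difference in the CD71/CD24a sort minus that in the CD71 sort was -0.9996 for Gp1bb (adjusted p = 0.00726), -0.85 for Pf4 (adjusted p = 0.0221) and -0.65 for Treml1 (adjusted p = 0.0467). Each was higher with Dex in the 1 CD71 pair and lower in both CD71/CD24a pairs. The CD71 pair rested on 13 and 38 reads for Gp1bb, 3 and 8 for Pf4 and 16 and 30 for Treml1, and only the counting interval of Gp1bb lay clear of 1 there. Sort, preparation and depth change together and cannot be told apart.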

How the results depend on the processing

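No condition has a replicate, so every result describes these 9 preparations, and fresh differences have counting error only. Low reads limit Ppbp and Selp throughout and Pf4 and Gp1bb in the CD71 sort. Where a value below moved, the cause was not tested beyond what the setting itself changes. Without the scaling factor 2 members were higher in Ter119+ cells than in CFU-E (Ppbp and Thbs1 were lost), beside 8.46% of all genes. Also without it 3 members were lower in Ter119+ cells than in BFU-E, beside 62.0%. With a pseudocount of 0.1 there were 2 lower in Ter119+ cells than in BFU-E, beside 39.5% of all genes. At that setting 5 were lower in the CD71 culture with water than in fresh BFU-E, beside 13.3%. The count that fell with Dex was 1 to 3 when a pair was left out. Without the CD71 pair it was 3 (Thbs1, Plek and Pf4), beside 681 of all 9535 genes, against 60 in the main fit. Without the CD71/CD24a DMOG pair or the CD71/CD24a pair it was 1, beside 94 and 35 genes. The count was 2 with a pseudocount of 0.1, beside 56 genes, 0 with no filter on low values and 0 with no replicate block. That unpaired fit left 12 rises and 2 falls among all genes, against 133 and 60. With no filter, 2 members rose between the sorts in place of 3 (Treml1 was lost, adjusted p = 0.0613), beside 2389 of 15602 genes. At that setting 0 fell, beside 1963 genes, and 0 had a Dex difference that was lower in the CD71/CD24a sort. With the 4 CD71/CD24a libraries alone 1 member rose with DMOG, beside 85 of 9535 genes.

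Signs turned for the following estimates. From BFU-E to Ter119+ cells they turned for Thbs1 (0.62 with the factor, -0.25 without) and Vwf (0.20 and -0.82). From CFU-E to Ter119+ cells they turned for Vwf (0.47 with the factor, -0.58 without) and Treml1 (0.16 and -0.35). Leaving out a pair gave Dex differences of -0.12 to 0.39 for Gp1bb, -0.18 to 0.11 for Gp9, -0.36 to 0.10 for Pf4 and -0.21 to 0.13 for Treml1. Without the factor the Dex difference of Treml1 was -0.0023, the sort difference of Gp1bb 0.094 and the interaction of Dex and DMOG for Plek -0.019. With a pseudocount of 0.1 Dex gave -0.0024 for Gp9 and 0.0041 for Pf4, the sort difference of Gp1bb was 0.025, and the Dex by sort difference of Plek 0.019.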
